A study of Mus musculus with 8 samples.

Results

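Granulocytic myeloid-derived suppressor cells (Gr-MDSCs), immature neutrophil-like cells that restrain T cells, were isolated from castration-resistant prostate tumors, and some of the arrays made from them carry clear epithelial transcripts. Of the 8 arrays, 3 had an intermediate and 3 a low signal of Krt8, the type II keratin of simple epithelia, and these 6 arrays are compared here. The classes were selected on the log2 signal of Krt8, read from its brightest probe set that maps to no other gene: arrays under 9 were called Krt8-low and the next 3 Krt8-intermediate. The remaining 2 arrays, which exceed the upper limit of the intermediate class by more than log2 1, are called Krt8-high. Because the arrays were chosen by Krt8 and their classes were known to differ across the transcriptome, every value between the classes is a description, with no test.

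The donors were CPPSML mice aged 12 to 16 weeks, in which PB-Cre+ deletes PtenL/L, p53L/L and also Smad4L/L, and which carry the reporters mTmGL/+ and, for luciferase, LSL-LucL/+. They were castrated once a tumor measured 150 mm3 and kept on enzalutamide diet for 4 weeks. All samples share this genotype and history. The probasin promoter drives Cre in prostate epithelium, so the deletions mark the tumor cells and are not expected in the myeloid cells. The isolated cells were exposed ex vivo for 6 h to 0.1 uM Dactolisib, a PI3K and mTOR inhibitor, to 0.1 uM Dasatinib, a Src family and Abl inhibitor, or to DMSO. The Krt8-intermediate arrays are DMSO 2, DMSO 4 and Dactolisib 1, the Krt8-low arrays DMSO 3, Dactolisib 2 and Dasatinib 2, and the Krt8-high arrays DMSO 5 and Dasatinib 1. Each class of the comparison thus holds DMSO and 1 Dactolisib array, which allows a difference matched on treatment: DMSO 2 and DMSO 4 against DMSO 3, and Dactolisib 1 against Dactolisib 2. Both Dasatinib samples carry Dactolisib in their treatment field, and their titles and source names were followed. Whether replicates are from different animals or cultures is not stated, so the spread between arrays may be technical.

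Simple epithelia line glands and ducts with a single layer of cells bearing keratins 8 and 18. Stratified epithelia instead exchange these for other keratin pairs and, as their upper cells flatten, make a cornified envelope from small proline-rich proteins crosslinked by transglutaminases. Interferons, secreted on sensing of viral or misplaced nucleic acid, act through JAK and STAT proteins on a large set of target genes, the interferon-stimulated genes, which bear short elements read by STAT and IRF factors. Neutrophils and MDSCs are known to respond to interferon, and both are recruited by CXC chemokines.

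The Krt8 signal was 10.43 on DMSO 2, 10.17 on DMSO 4 and 9.88 on Dactolisib 1. It was 8.33 on DMSO 3, 8.09 on Dactolisib 2 and 8.30 on Dasatinib 2, and 13.31 and 13.37 on the Krt8-high arrays. No array lay near a limit: the nearest values on either side of 9 were 8.33 and 9.88. Cldn4, a claudin of tight junctions that the rule did not use, put the arrays in the same order of classes. It lay at 7.90 to 8.55, 10.27 to 10.89 and 13.02 on both Krt8-high arrays. Cldn4 was named as a marker together with the rule, so its order is no independent check. Array medians over all probe sets lay between 4.82 and 4.87. Across probe sets, Spearman correlations were at least 0.986 within a class and 0.955 to 0.972 between an intermediate and a low array. The 3' minus 5' difference of the control probe sets, a measure of RNA quality, was -0.078 to -0.038 for Gapdh on the intermediate arrays and -0.115 to -0.084 on the low arrays. For Actb it was 0.026 to 0.082 and 0.082 to 0.153, and its part in the differences between the classes was not tested.

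Granulocyte transcripts were abundant on all 6 arrays. S100a8 and S100a9, the subunits of calprotectin, lay at 13.77 to 13.85 and 14.05 to 14.12 on the intermediate arrays and at 13.67 to 13.77 and 13.96 to 14.05 on the low arrays. Csf3r, the G-CSF receptor, ranged from 12.45 to 12.60 and from 12.40 to 12.49. Ly6g, a defining marker, has no single-gene probe set here. The 2 calprotectin genes were close to the highest values of the arrays, which leaves little room for a difference. Itgam, the integrin CD11b, was lower in signal and separated, at 10.62 to 10.90 and 10.14 to 10.25. Transcripts of the labelled cell type were thus present in both classes. In bulk RNA, fewer cells of a type and less RNA per cell cannot be told apart.

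**Figure D1:**
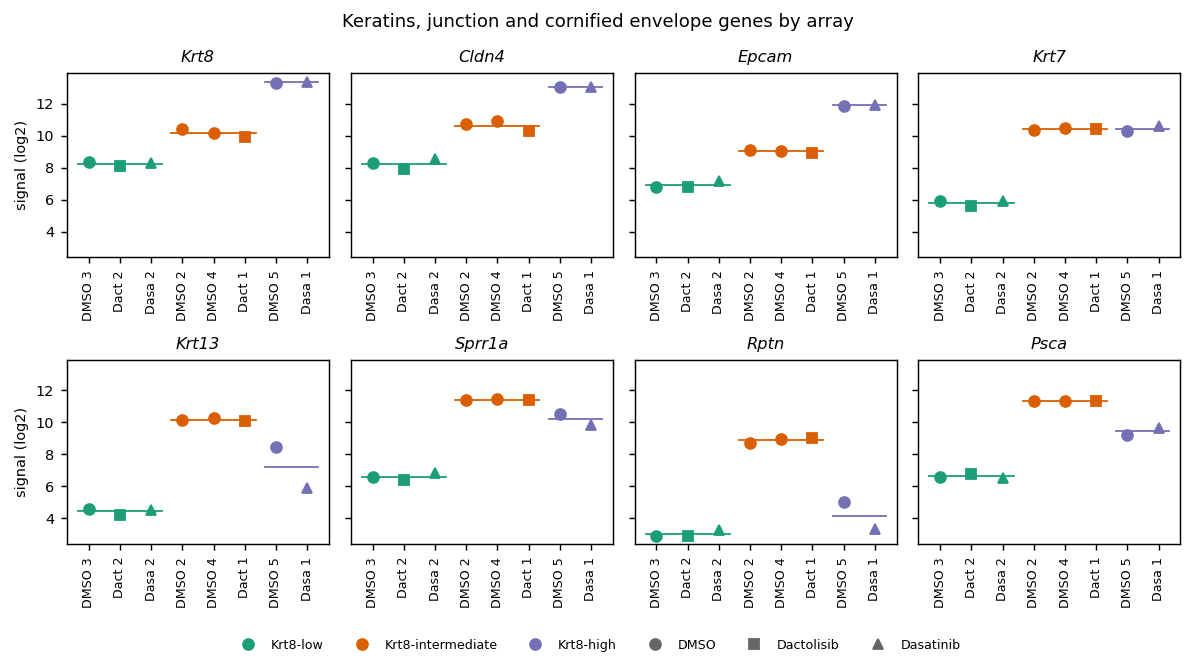
Log2 signal (vertical axis) of 8 genes on each of the 8 arrays (horizontal axis), with color for the Krt8 class, shape for the treatment and a line at each class mean. Krt8, Cldn4 and Epcam climb from low to high, Krt7 is level between the intermediate and high arrays, and Krt13, Sprr1a, Rptn and Psca peak on the 3 intermediate arrays.

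For 2542 of 14237 genes (17.9%) all 3 intermediate arrays lay above all 3 low arrays, and for 2247 (15.8%) all 3 low arrays lay above. These shares are the background against which the gene lists below are read. With a difference of class means of at least log2 1 as well, 350 genes (2.46%) were higher on the intermediate and 61 (0.428%) on the low arrays. With 32 added before log2, which shrinks differences of low signals, these counts were 195 and 39. The larger differences were on the intermediate side: 124 of the 350 reached log2 2 and the largest was 5.86, whereas the largest of the 61 was 1.97. These counts, and those of the epithelial lists below, include genes that passed the filter on mean signal only through arrays where they are high. Among them are Rptn, which has the largest difference, and Aldh1a1 and Ehf, at 2.88 to 3.37 and 3.39 to 3.86 on the low arrays. The part of the filter in the difference between the sides was not tested. Over all genes the median difference was -0.01. Of the 350 genes, 58 belonged to the epithelial lists, with Krt8 itself among them, and 7 to the fibroblast list. Of the 61, 18 belonged to the interferon and MHC lists and 0 to the epithelial lists.

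The 12 genes with the largest matched difference on the intermediate side were ranked by the smaller of their treatment-matched differences. The first was a gene of stratified epithelium, as were several others. Rptn, which encodes the epidermal matrix protein repetin, read 8.75, 8.95 and 9.01 on DMSO 2, DMSO 4 and Dactolisib 1, and 2.91, 2.93 and 3.28 on DMSO 3, Dactolisib 2 and Dasatinib 2. No fold is given for Rptn, since its signal on the low arrays was near the bottom of the scale. Rptn passed the filter on mean signal only through the intermediate arrays, so its first rank is no more than a description. Its other probe set had a difference of the opposite sign. Krt13, the keratin of mucosal stratified epithelium, had 10.18, 10.29 and 10.08 against 4.60, 4.24 and 4.52, a 53.1-fold difference. Krt13 thus lay a little under the median of all probe sets on the low arrays and far above it on every intermediate array. Csta1, a cystatin A family protease inhibitor, Sprr1a and Sprr2f, of the cornified envelope, and S100a14, a calcium-binding protein of epithelia, followed with differences of 4.94, 4.81, 4.57 and 3.94. Psca, a surface antigen of prostate and urothelial cells, differed by 4.69, and Krt7, a keratin of simple and transitional epithelium, by 4.61. Cpe, a carboxypeptidase of secretory granules, differed by 4.06, with the opposite sign in its other probe set. Aldh1a1, a retinaldehyde dehydrogenase, differed by 3.89. Its signal on the low arrays, at 2.88 to 3.37, was near the bottom of the scale. Also in the list were Ppbp, a chemokine, at rank 2, and Arg1, arginase 1, at rank 9. Ppbp is described with the cytokines and Arg1 with the myeloid genes.

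Genes of simple epithelium were higher on the intermediate arrays almost throughout. Of 34 genes tested (of 35 listed), 31 were separated in this direction, 23 of them by log2 1 or more, and 0 in the other. These counts and the list median include Krt8, whose separation the choice of arrays fixed. The median difference was 1.78, and 1.78 and 1.72 within DMSO and within Dactolisib. Krt19, a keratin of ductal cells, differed by 3.35. Epcam, the epithelial adhesion molecule, had 9.09, 9.01 and 8.92 against 6.79, 6.81 and 7.18. The lowest intermediate array thus exceeded the highest low array by more than the arrays of a class differed among themselves. Ehf, an epithelial ETS factor, and Tspan1, a tetraspanin, differed by 3.17 and 2.78, with the opposite sign in 1 of 3 other probe sets of Ehf. On 30 of the 31 separated genes both Krt8-high arrays lay above the intermediate arrays, so this program followed the Krt8 order, which the choice of arrays fixes for Krt8 itself.

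Squamous differentiation genes were also higher on the intermediate arrays but did not follow that order. Of 45 genes tested (of 49 listed), 36 were higher on the intermediate arrays, 29 by log2 1 or more, and 5 were higher on the low arrays. The median was 1.41, and 1.61 and 1.79 within DMSO and within Dactolisib. Both Krt8-high arrays lay above the intermediate arrays for 14 of the 36 genes and below all of them for 13. Sprr3, of the cornified envelope, had 8.11, 8.07 and 8.14 on the intermediate, 5.01, 4.68 and 4.81 on the low arrays, and 4.90 on DMSO 5. Cnfn, which encodes cornifelin, had 8.55, 8.29 and 8.56, then 4.76, 5.14 and 5.26, then 5.65 and 5.11. Both genes were thus high on the intermediate arrays, with every low and high array more than log2 2 below. Krt4, the partner of Krt13, differed by 3.68 between intermediate and low, and read 9.35 and 9.23 on the high arrays against 10.63 to 10.82 on the intermediate.

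Keratins of the wounded or hyperproliferative state varied in their order over the 3 classes. Krt17 read 6.18, 6.12 and 5.98 on the intermediate and 4.54, 3.60 and 5.20 on the low arrays, and 9.80 and 10.14 on the high. Krt16 read 9.08, 9.18 and 8.79, then 6.01, 5.97 and 7.07, then 11.17 and 10.78. Krt6b read 8.81, 8.50 and 8.76, then 5.29, 5.31 and 6.49, then 8.81 and 6.61, so it did not climb further as Krt17 and Krt16 did. Sprr3, Cnfn, Krt4, Krt17, Krt16 and Krt6b were chosen after their values were seen. The 5 list members higher on the low arrays included Il1f6 and Il1f9, which encode the interleukin-36 cytokines alpha and gamma, with differences of -0.91 and -0.43. These are cytokines, which neutrophils can also make, and the other 3 (Capns2, Casp14 and Tgm3) differed by at most 0.40 in size. Loricrin (Lor), the main late envelope protein, overlapped between the classes at 5.26 to 5.41 and 5.28 to 5.36.

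**Figure D2:**
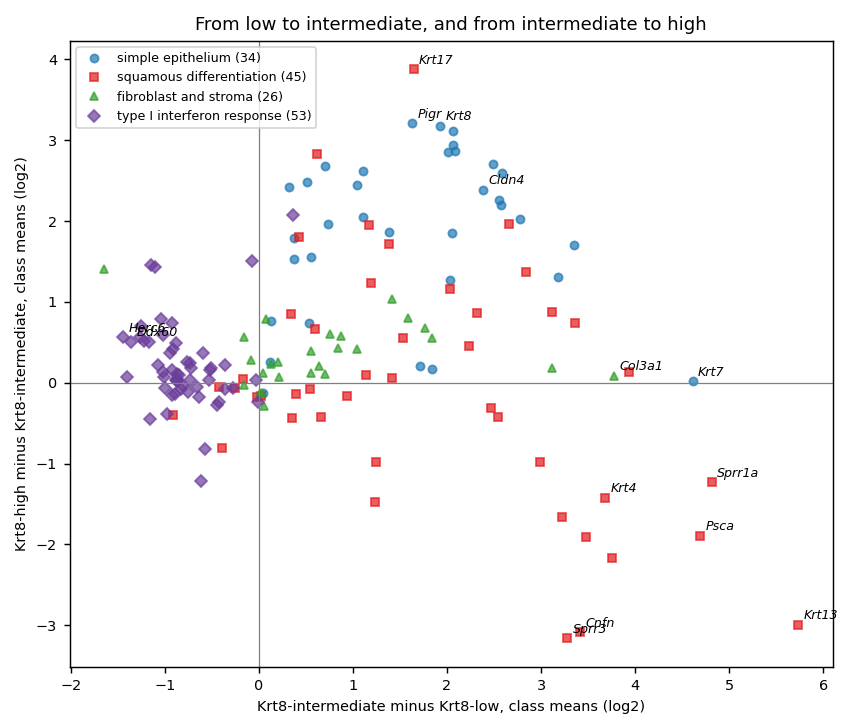
Each point is 1 gene of 4 lists, with the difference of the class means from Krt8-low to Krt8-intermediate on the horizontal and from Krt8-intermediate to Krt8-high on the vertical axis, both in log2. Simple epithelial genes lie mostly to the upper right, 13 of the 36 separated squamous genes have both high arrays below the intermediate arrays and lie to the lower right, and the interferon genes lie to the left of 0 except Lgals3bp.

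Basal layer genes were split, and desmosomal genes were not. Of 12 basal layer genes tested, 5 were higher (41.7%) and 2 lower (16.7%) on the intermediate arrays, with a median of 0.13. Krt15 and Krt14, keratins of basal cells, differed by 2.95 and 1.86 and Krt5, the partner of Krt14, by 1.17, while Lamb3, a laminin chain of the basement membrane, was lower, at -0.73. Dasatinib 2 was the highest of the low arrays for Krt14, at 7.64 against 6.66 and 6.65. Of 11 desmosomal genes tested, 10 were higher on the intermediate arrays and 0 lower, with a median of 0.93. Dsp, desmoplakin, which links desmosomes to keratin, differed by 3.13, Perp, a desmosomal membrane protein, by 2.84, and the cadherins Dsc2 and Dsg2 by 2.02 and 1.78.

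Several of the 350 genes are neighbors on a chromosome: 56 of the 348 that could be placed lay in 22 runs of adjacent genes. One run was the type I keratin genes Krt13, Krt15, Krt19, Krt14, Krt16 and Krt17 on chromosome 11, and another Krt6b, Krt6a and Krt5 on chromosome 15. On chromosome 3, the runs Sprr2d to Sprr2i, Sprr1b to Sprr1a and Crct1 to S100a10 lie in the epidermal differentiation complex. The 61 genes on the other side held 7 such neighbors in 3 runs, among them Ifi207, Ifi204 and Mndal on chromosome 1, of a family of interferon-inducible DNA sensors. The number of adjacent genes in other sets of these sizes was not computed, so neither count can be called high or low. Adjacent members of a family can share sequence, and cross-hybridization between their probes was not tested.

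Prostate and seminal vesicle genes are products of the male accessory glands. Of 9 prostate secretory genes tested, 3 were higher (33.3%) and 1 lower (11.1%) on the intermediate arrays, against 17.9% and 15.8% of all genes. Tmprss2, an androgen-regulated protease, was at 1.04, and the median was 0.03. Of 5 seminal vesicle genes tested, 0 were separated. Svs2, a seminal coagulation protein, read 2.16, 2.20 and 2.02 on the intermediate, 2.15, 2.16 and 2.29 on the low, and 13.09 and 12.12 on the high arrays. Svs4, another seminal vesicle secretory protein, was at 2.23 to 2.75 on the 6 arrays and at 11.87 and 9.26 on the high. Both were at the bottom of the scale on the 6 arrays and passed the filter on mean signal only through the Krt8-high arrays, so their lack of separation between the classes carries no information.

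Stromal transcripts also leaned to the intermediate arrays, and the Krt8-high arrays parted on them. Of 26 fibroblast and stromal genes tested, 15 were higher on the intermediate arrays, 7 by log2 1 or more, and 1 was lower, with a median of 0.55. Both Krt8-high arrays lay above the intermediate arrays for 4 of the 15 genes and below them for 0. As medians of the list, less each gene's mean over the 6 arrays, DMSO 5 lay at 0.72 and Dasatinib 1 at 0.26. The intermediate arrays lay at 0.15 to 0.31. Col3a1, a fibrillar collagen, read 9.29, 9.17 and 9.02 against 5.80, 5.12 and 5.23, and Postn, the matrix protein periostin, 8.32, 8.15 and 7.63 against 5.10, 4.78 and 4.87. Col1a2 and Bgn, another collagen and a matrix proteoglycan, differed by 1.84 and 1.77. The exception was Fap, a serine protease of activated fibroblasts, at 4.01, 4.69 and 4.85 on the intermediate and 6.19, 6.16 and 6.13 on the low arrays. Of 15 endothelial genes 1 was higher (6.67%) and 4 were lower (26.7%), with a median of -0.03. Of 17 T and NK cell genes, 0 were higher and 3 lower (17.6%, near the 15.8% of all genes). Of 7 B and plasma cell genes 1 was higher (14.3%, against 17.9% of all genes). It was Blnk, an adaptor of the B cell receptor, by 1.95, with 10.33 on both high arrays. The part of these cell types in the other differences was not tested.

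The type I interferon response lay almost wholly on the other side, higher on the low arrays. Of 53 genes tested (of 58 listed), 49 (92.5%) were higher on all 3 low arrays than on all 3 intermediate arrays, against 15.8% of all genes, and 1 was higher on the intermediate. The difference reached log2 1 in 15, and the median was -0.87, and -0.86 and -0.81 within DMSO and within Dactolisib. Isg15 has no single-gene probe set here. The differences were small beside those of the epithelial genes, at most 1.45 in size, but the arrays of a class lay close together.

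Herc6, the ubiquitin ligase that attaches ISG15 in mice, read 7.64, 7.61 and 7.71 on DMSO 2, DMSO 4 and Dactolisib 1, and 9.10, 9.13 and 9.08 on DMSO 3, Dactolisib 2 and Dasatinib 2. Slfn5, a Schlafen family protein, read 8.59, 8.18 and 8.40 against 9.76, 9.72 and 9.89. Ddx60, a helicase that aids RNA sensing, had 8.19, 7.96 and 8.29 against 9.53, 9.48 and 9.50. The classes were apart by more than log2 1 in all 3 genes, whose low arrays spanned at most 0.17. Usp18, which removes ISG15 and restrains the interferon receptor, differed by -1.26. Their other probe sets, 3 for Herc6, 2 for Slfn5 and 1 for Ddx60, were separated in the same direction. Among the remaining members, sensors (Ifih1, at -1.15), effectors (Ifit1 and Ifit2, at -1.26 and -1.23), the transcription factors Irf7 and Irf9, at -1.17 and -0.87, and Stat2, at -0.83, all lay on the same side. The members not separated were Mx1, Ifi203 and Trim25, with differences of -0.07, -0.03 and -0.01. Lgals3bp, a secreted glycoprotein that epithelial tumors also make, was the single member higher on the intermediate arrays, by 0.36, and read 9.66 and 10.15 on the high arrays against 7.80 to 7.87 on the intermediate. Ifih1, Ifit1, Ifit2, Irf7, Irf9 and Stat2 were named after their values were seen.

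**Figure D3:**
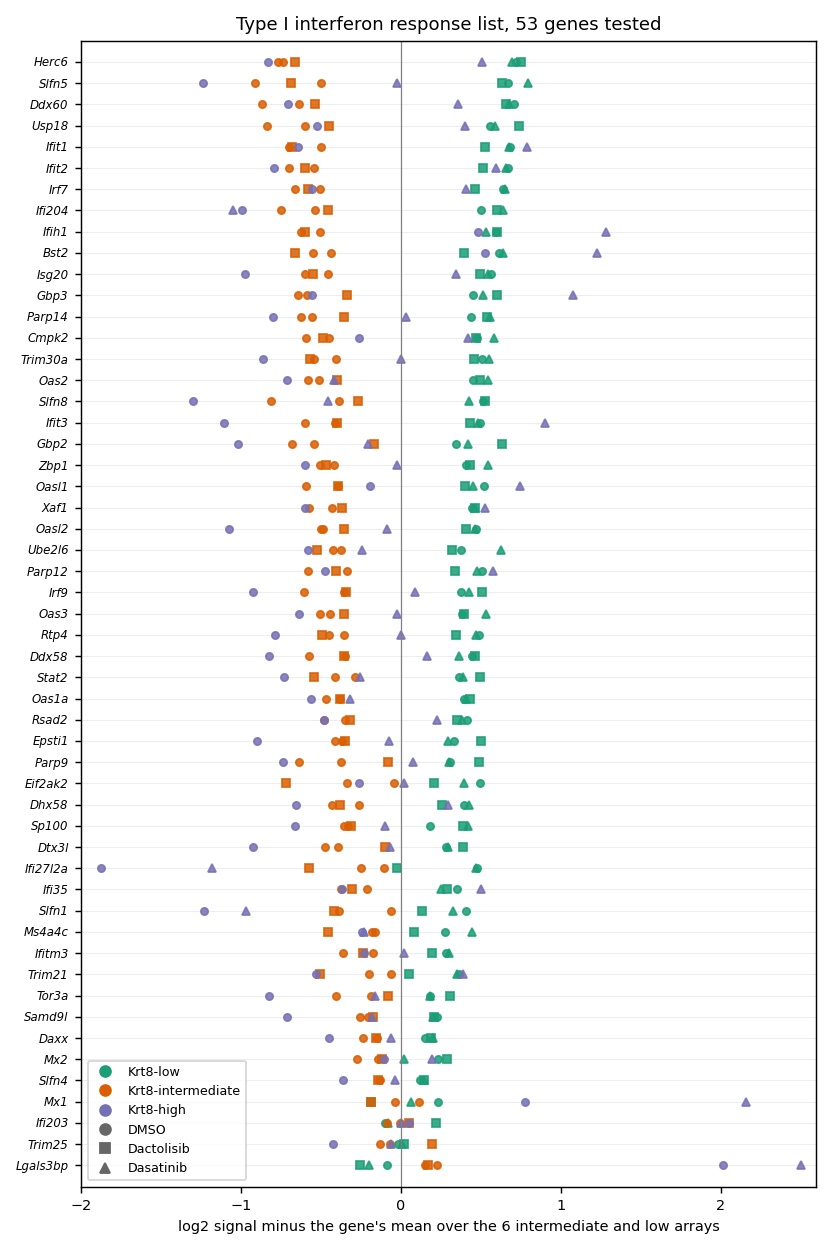
Log2 signal of each of the 53 type I interferon genes (rows) on the 8 arrays, less the gene's mean over the 6 intermediate and low arrays, with color for the Krt8 class and shape for the treatment. In 49 rows all 3 low arrays lie to the right of all 3 intermediate arrays, and in most rows DMSO 5 lies on the left and Dasatinib 1 farther to the right.

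The Krt8-high arrays parted on these genes. DMSO 5 lay at or below the highest intermediate array for 44 of the 49 separated genes, and Dasatinib 1 for 9. Dasatinib 1 reached the range of the low arrays or more for 13 of them, such as Ifit1, at 11.28 against 9.85 on DMSO 5. The interferon level thus did not follow Krt8 across all 8 arrays. As medians of the list, less each gene's mean over the 6 arrays, the intermediate arrays lay at -0.50 to -0.38, the low arrays at 0.41 to 0.45, DMSO 5 at -0.65 and Dasatinib 1 at 0.02.

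The interferon-stimulated response element (ISRE) is shown to let the pattern be set beside sequence. In 250 bases before the transcription start (RefSeq, GRCm38.p6), TTTCNNTTTC on either strand occurred in 3.17% of the 11416 promoters of genes tested. It occurred in 14 of the 41 promoters of tested type I list genes (34.1%). For genes different by log2 1 or more, it occurred in 10 of 47 higher on the low arrays (21.3%) and in 6 of 254 higher on the intermediate arrays (2.36%). Among the 47, those in no interferon or MHC list held it in 3 of 32 (9.4%), so the 21.3% rests largely on genes listed as interferon targets. Pyrimidine-rich promoters can hold these letters too: 4 of 21 tested ribosomal protein genes did (19.0%). The stretches below run 5′ to 3′ in the direction of the gene, with each match in capitals. Slfn5 and Ddx60 lead the list, Ifit3 and Rsad2 were added as classical interferon targets after their values were seen (differences of -0.94 and -0.77), Herc6 held no match in this window, and Usp18 was not found.
Slfn5, chr11:82951927-82951976 (+): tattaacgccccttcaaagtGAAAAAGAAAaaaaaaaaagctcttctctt
Ddx60, chr8:61928014-61928086 (+): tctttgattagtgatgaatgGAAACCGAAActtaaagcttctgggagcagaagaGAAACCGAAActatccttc
Ifit3, chr19:34583353-34583436 (+): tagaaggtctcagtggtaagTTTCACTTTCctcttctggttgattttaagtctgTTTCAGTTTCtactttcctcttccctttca
Rsad2, chr12:26456543-26456592 (-): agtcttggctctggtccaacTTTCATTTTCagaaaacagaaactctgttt
Ddx60 and Ifit3 each held 2 matches, starting 53 and 19 bases before the start in Ddx60 and 156 and 122 bases before it in Ifit3. A match is a description of letters and no shown binding site.

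Targets of interferon gamma shared the direction. Of 29 genes tested (of 37 listed), 24 were higher on the low arrays, 4 by log2 1 or more, and 2 on the intermediate, with a median of -0.65. Fcgr1, the high-affinity IgG receptor CD64, read 6.92, 6.83 and 6.65 on the intermediate and 8.21, 8.12 and 8.25 on the low arrays, while its other probe set was not separated. Ifi47, Irgm1 and Gbp3, guanosine triphosphatases of cell-autonomous defense, differed by -1.11, -1.02 and -1.05. The 2 exceptions were Iigp1, another of these enzymes, by 0.47, and Ido1, which degrades tryptophan, by 0.31. The tested genes Gbp2 and Gbp3 are in both interferon lists. In the same window the element of STAT homodimers, TTCNNNGAA, occurred in 8 of 21 promoters of tested genes of the list (38.1%) and in 7.17% of all tested. The ISRE letters occurred in 8 of these 21 promoters as well (38.1%), and in 3.17% of all tested.

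The machinery upstream of these targets was mixed. Of 30 interferon ligand, receptor and sensor genes tested, 9 were higher on the low (30%) and 5 on the intermediate arrays (16.7%), with a median of -0.07. The shares of all genes were 15.8% and 17.9%, so the second count is near that of all genes. Ifnb1 overlapped, at 4.43 to 4.75 and 4.61 to 4.77, as did Ifna1, at 5.36 to 5.62 and 5.40 to 5.47. Ifng did not pass the filter on low signal. Ifnb1 lay below the array median on each of the 6 arrays, so its overlap carries little information. Ifna2, also below the median, was separated and higher on the intermediate arrays by 0.17. The receptor chains Ifnar1 and Ifnar2 overlapped as well, at 10.36 to 10.56 against 10.39 to 10.54 and at 10.87 to 11.25 against 11.14 to 11.25. Among the separated genes, Cgas, which makes the cyclic dinucleotide sensed by STING, was lower on the intermediate arrays by 0.70. Sting1 itself was higher there by 0.62, with 6.99 and 7.05 on the high arrays. Ifngr1, a chain of the interferon gamma receptor, was higher on the intermediate arrays by 0.50, and Socs3, a feedback inhibitor of JAK kinases, lower by 0.67. Antigen presentation split by class: of 9 MHC class I genes tested 7 were higher on the low arrays, with Tap1, a peptide transporter, at -0.65, whereas of 7 class II genes 4 were higher on the intermediate, with H2-Aa at 0.52. The class I chains H2-K1 and H2-D1 differed by 0.04 each, near the highest values of the arrays, and 3 of 3 and 4 of 7 of their other probe sets had the opposite sign.

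**Figure D4:**
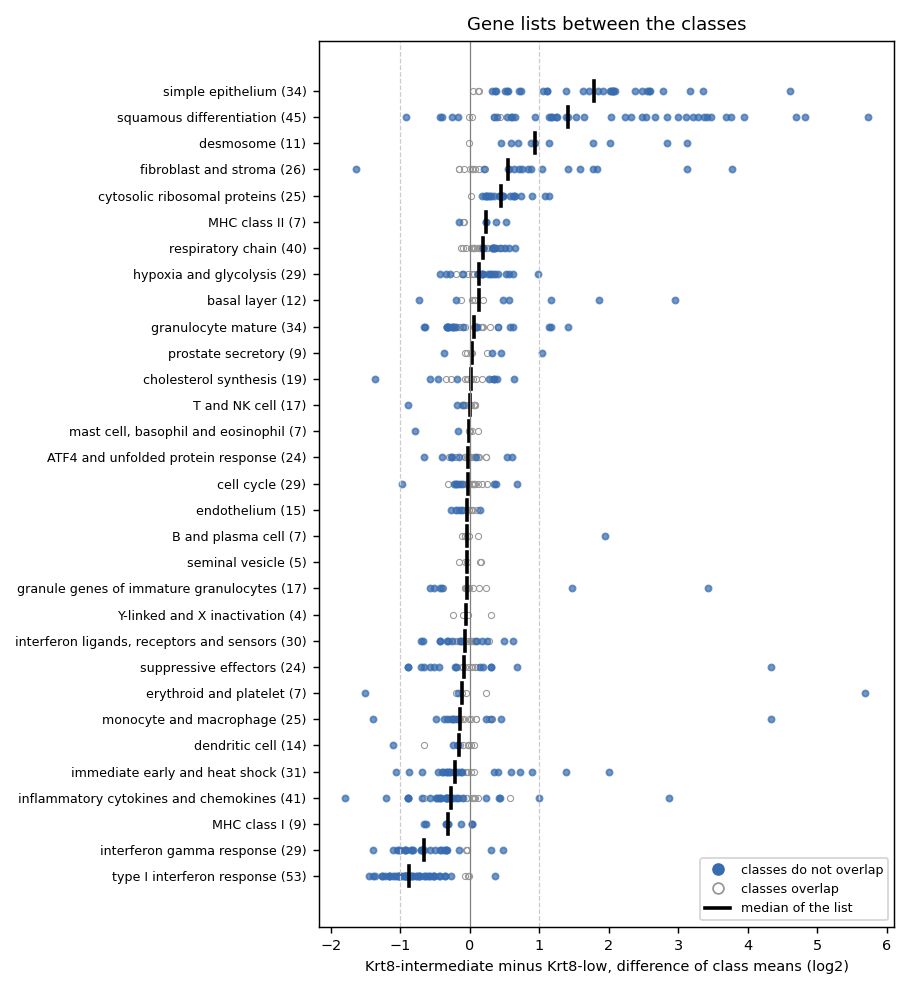
Difference of class means, Krt8-intermediate minus Krt8-low in log2 (horizontal axis), for every gene tested in 31 lists (rows, number tested in brackets). Filled points are genes whose classes do not overlap, open points overlap, and black bars are list medians, from -0.87 for the type I interferon response to 1.78 for simple epithelium.

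Cytokine genes leaned to the low arrays, with exceptions. Of 41 inflammatory genes tested, 22 were higher on the low arrays (53.7%, against 15.8% of all genes) and 5 on the intermediate, with a median of -0.27. Il23a, the p19 subunit of interleukin-23, read 8.47, 8.37 and 8.27 against 10.26, 9.98 and 10.25. Il1a, interleukin-1 alpha, differed by -1.21, while Il1b, its close relative, overlapped, at 13.07 to 13.36 and 13.28 to 13.49. Tnf differed by -0.34 and Ptgs2, the inducible cyclooxygenase, by -0.89. In the other direction, Cxcl5, a ligand of CXCR2 that epithelia make, had 9.83, 9.95 and 9.86 against 6.88, 6.95 and 7.22, and Il6 had 5.21, 4.90 and 5.09 against 3.99, 3.88 and 4.36. Ppbp, the precursor of CXCL7 and a neighbor of Cxcl5 on chromosome 5, read 11.78, 11.91 and 11.85 against 6.19, 6.12 and 6.19, a 51.4-fold difference. Pf4, like Ppbp a chemokine known from platelets, was lower on the intermediate arrays, at 6.85, 6.68 and 6.65 against 8.41, 8.08 and 8.21, and the part of platelets in either difference was not tested.

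**Figure D5:**
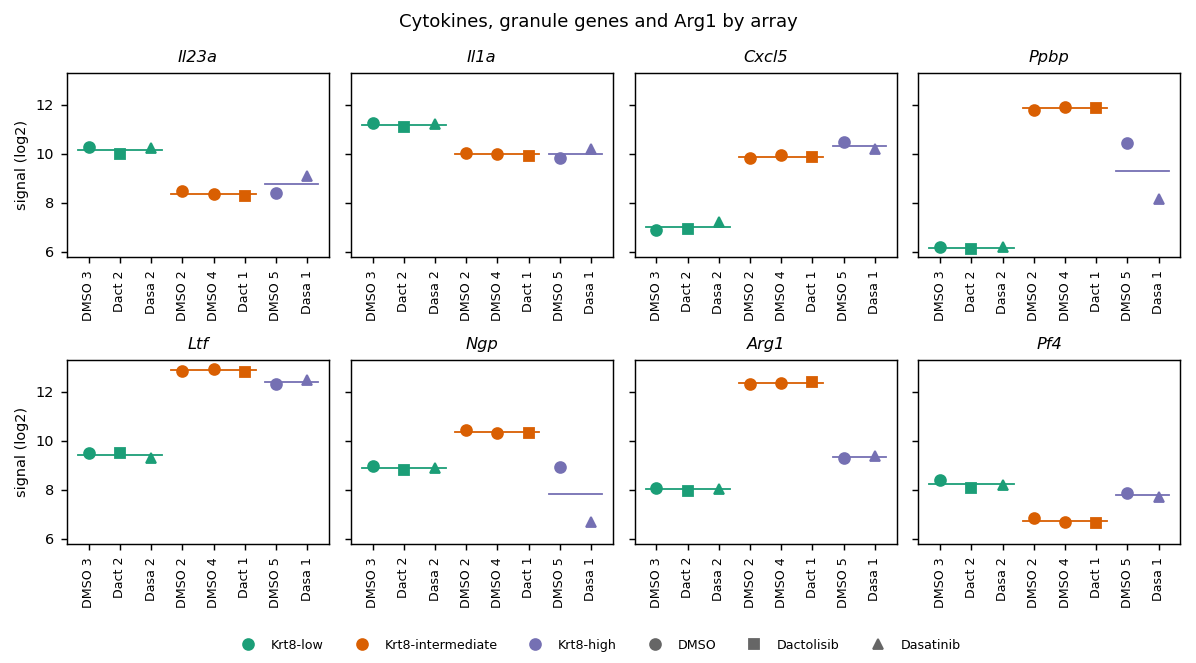
Log2 signal (vertical axis) of 8 cytokine, granule and myeloid genes on the 8 arrays (horizontal axis), with color for the Krt8 class, shape for the treatment and a line at each class mean. Il23a, Il1a and Pf4 are lowest in the intermediate class among the 6 arrays compared, and Cxcl5, Ppbp, Ltf, Ngp and Arg1 are higher there than in the low class.

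Myeloid genes differed singly more than as programs. Arg1, arginase 1, which depletes arginine and is a hallmark of MDSC and macrophage suppression, read 12.32, 12.37 and 12.38 on the intermediate arrays, 8.07, 7.93 and 8.05 on the low, and 9.29 and 9.39 on the high. It is the largest difference among 24 suppressive effector genes tested. Of these, 6 were higher (25%) and 9 lower (37.5%) on the intermediate arrays, with a median of -0.08. Cd274, encoding PD-L1, and Il10 were lower on the intermediate arrays, by 0.71 and 0.89. Of 17 granule genes tested, 2 were higher (11.8%) and 4 lower (23.5%), against 17.9% and 15.8% of all genes, with a median of -0.04. Ltf, lactoferrin, read 12.83, 12.94 and 12.82 against 9.51, 9.50 and 9.29, and 12.30 and 12.48 on the high arrays. Ngp, neutrophilic granule protein, read 10.45, 10.31 and 10.32 against 8.97, 8.82 and 8.90, and 8.94 and 6.70 on the high arrays. Other genes of the same granules overlapped: Camp, at 7.08 to 7.27 and 7.10 to 7.33, and Lcn2, at 12.94 to 13.02 and 12.96 to 13.01. Lactoferrin is also a secretory product of glandular epithelia, and its cell of origin cannot be told apart here.

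Of 34 genes of mature granulocytes tested, 8 were higher (23.5%) and 12 lower (35.3%) on the intermediate arrays, with a median of 0.06. The shares of all genes were 17.9% and 15.8%. Padi4, which citrullinates histones, Stfa3, a stefin of neutrophils, and Pglyrp1, a peptidoglycan-binding granule protein, were higher by 1.42, 1.17 and 1.14, and Itgam by 0.57. Hdc, histidine decarboxylase, and Il1r2, the decoy receptor of interleukin-1, were lower by 0.66 and 0.64. Among 25 monocyte and macrophage genes, 4 were higher (16%) and 8 lower (32%), and Arg1 and Fcgr1, at the 2 ends, are members of other lists too. Of 14 dendritic cell genes 0 were higher and 4 lower (28.6%), led by Bst2, itself an interferon target.

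The remaining 12-gene ranking, on the low side, named Pttg1, securin, first: 10.31, 10.22 and 10.23 against 12.23, 12.22 and 12.24. Erdr1, Izumo1 and Rasip1 followed with differences of -1.85, -1.85 and -1.65, and Izumo1 and Rasip1 are adjacent on chromosome 7. Izumo1 encodes a sperm protein of gamete fusion, Rasip1 a Ras-interacting protein of endothelium. Ctse, a cathepsin, Ly6i, a Ly6 family antigen, Efr3b, a membrane anchor of a lipid kinase, and Muc3, a mucin, differed by -1.67, -1.68, -1.56 and -1.43, with the opposite sign in the other probe set of Ctse. Il23a, Pf4, Herc6 and Fcgr1, given above, complete the 12. On the Krt8-high arrays Pttg1 read 10.96 and 10.24, near the intermediate level, whereas Erdr1 read 10.07 and 11.08, at or above the low level. Of 29 cell cycle genes tested, 3 were higher (10.3%) and 6 lower (20.7%) on the intermediate arrays, near the shares of all genes. Mki67, a proliferation marker, was lower there by 0.97, while Mcm6, of the replication helicase, Rrm2 and Ube2c were higher by 0.68, 0.37 and 0.35.

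Among housekeeping groups, the ribosomal list stood on 1 side. Cytosolic ribosomal protein genes were higher on the intermediate arrays in 24 of 25 tested (of 40 listed), with a median of 0.46, and 0 were lower. Rps18 and Rps4x differed by 1.14 and 1.09, and on 22 of the 24 genes both high arrays lay above the intermediate arrays. Of 40 respiratory chain genes 11 were higher (27.5%, against 17.9% of all genes) and 0 lower, with a median of 0.18. Of 29 hypoxia and glycolysis genes 14 were higher (48.3%) and 4 lower (13.8%), led by Egln3, an oxygen-sensing hydroxylase, at 0.98. Immediate early and heat shock genes divided: 17 of 31 were lower on the intermediate arrays, with Egr1 at -1.07, and 7 higher, with the small heat shock protein Hspb1 at 9.92 to 10.18 against 7.93 to 8.20 and the epithelial factor Klf4 at 1.38. Fos and Junb differed by -0.38 and -0.46, and Myc by 0.89, as seen once their values were known. In the cholesterol list, with a median of 0.02, Srebf2, its master regulator, was lower by 1.37, with 7.68, 7.35 and 8.01 against 9.04, 9.15 and 8.95.

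Treatment could be tested within the classes, since it was not used to choose the arrays. In both classes the Dactolisib array had the lowest signal of Krt8 (9.88 and 8.09) and of Cldn4 (10.27 and 7.90). The part of this remaining difference in epithelial RNA in the values for Dactolisib, here and below, was not tested. Dactolisib and DMSO were compared with limma on the 6 arrays with the Krt8 class as a block, which leaves 2 residual degrees of freedom and 1 Dactolisib array in each class. At adjusted p < 0.05, 319 of 14237 genes (2.24%) were higher and 663 (4.66%) lower under Dactolisib. Of 120 genes named for their difference between the classes, 5 also passed for Dactolisib: Socs3, Pglyrp1, Postn, Cd274 and the respiratory chain subunit Ndufa4. Cd274 rose by 0.63 ± 0.09 (SE; limma adjusted p = 0.0152), to 11.90 on Dactolisib 1 from 11.21 and 11.12 in its class, and to 12.44 from 11.96 in the low class. The Dactolisib array of the intermediate class thus lay just below the DMSO array of the low class. Socs3 rose by 0.49 ± 0.10 (adjusted p = 0.0295), and Pglyrp1 fell by 0.77 ± 0.08 (adjusted p = 0.00941), to 9.01 from 9.76 on both DMSO arrays and to 7.83 from 8.61. Postn fell by 0.48 ± 0.10 and Ndufa4 by 0.61 ± 0.10, with adjusted p of 0.0363 and 0.0189.

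In the lists that separated the classes, the shares called for the drug are read against 2.24% of all genes higher and 4.66% lower. Of the 53 type I interferon genes, Gbp2 rose by 0.38 ± 0.09 (SE) and Ifi27l2a fell by 0.44 ± 0.09, with limma adjusted p of 0.0491 and 0.0290 (1.89% in each direction). Of 34 simple epithelial genes, Cldn4 fell by 0.48 ± 0.09 and Cdh1, E-cadherin, by 0.33 ± 0.08 (adjusted p of 0.0260 and 0.0487; 5.88%), and 0 rose. In the squamous list 1 of 45 passed: Gjb6, a connexin, rose by 0.44 ± 0.09, to 4.58 from 4.02 and 4.10 and to 4.00 from 3.67. Interferon gamma targets split, with 3 higher and 3 lower of 29 (10.3% each). Respiratory chain genes were lower in 14 of 40 (35%), against 4.66% of all genes. Without the class as a block, limma passed 0 probe sets in either direction, with 1339 probe sets higher and 2181 lower at unadjusted p < 0.05. Calls were also lost without Dactolisib 1, without Dactolisib 2 and without DMSO 3, fits in which the comparison rests on 1 Dactolisib array. The last 2 are the same comparison, of Dactolisib 1 with DMSO 2 and DMSO 4, and are not separate checks.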

How the data were processed

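RNA of 8 samples was hybridised to Affymetrix mouse genome arrays. The authors deposited log2 signals of 45101 probe sets, whose medians differ little between arrays. The sources name oligo (paper) and MAS5 (submitters' notes) for the summary, and RNeasy (paper) and Trizol (labels) for extraction, and the deposited log2 values were used unchanged. Probe sets were joined to genes by a platform annotation table: 34945 have 1 gene, 932 several and 9160 none, and 64 are controls. The upper 66.7% of non-control probe sets by mean signal, 30024, were kept, and of probe sets that map to 1 gene only, the brightest on average stands for the gene (14237 genes). A gene is separated where the 3 arrays of a class all lie above the 3 of the other. The arrays, the 31 gene lists and all rules were chosen with earlier results of these data known. Genes named are the 12 per direction with the largest smaller treatment-matched difference among separated genes, up to 4 separated members per list by difference, and up to 3 per list by p in the drug comparison, with Krt8, Cldn4 and members that did not separate. Any other gene was chosen after its values were seen. Dactolisib was compared with DMSO by limma 3.58.1 in R 4.3.3 (class block, Dasatinib term, empirical Bayes, Benjamini and Hochberg adjustment, threshold 0.05). Errors after ± are standard errors. The number of arrays limits the precision. On simulated data, limma found 63.5% of changes of log2 1 and 96% of log2 2 in 30024 probe sets. Alternatives were quantile normalization, 32 added before log2, other filters, averaged probe sets per gene, matched differences, another prior, array weights, the methods' t-test, all 8 arrays, and each array left out. Promoter sequences are those of RefSeq, and 11416 of the 14237 genes matched by symbol. Protein and western blot data were not used here.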

Additional observations from a re-analysis of the deposited data

Results flagged for a closer look

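For 6 of 31 lists, the Dactolisib array lay on opposite sides of the DMSO arrays in the 2 classes, when the list median on the Dactolisib array was compared with that on the DMSO arrays of its class. Each class holds 1 Dactolisib array, and the difference between the classes was not tested for any list. The desmosome list differed by -0.125 in the Krt8-intermediate and by 0.317 in the Krt8-low class, and the fibroblast and stroma list by -0.109 and 0.146. The interferon gamma list differed by 0.0968 and -0.119, and the hypoxia and glycolysis list by 0.0581 and -0.0181. For dendritic cell genes the values were -0.0228 and 0.0579, and for T and NK cell genes -0.0450 and 0.0736. Median differences this small are 0.317 at most in size, where the same lists differ between the classes by up to 0.93.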

How the results depend on the processing

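All 120 genes named for the class difference kept their sign under the 14 alternatives run. They were named for being separated, so leaving out an array or matching on treatment could not reverse them. Of 31 list medians, 8, none over 0.0424 in size, took the other sign under at least 1 of the alternatives. In 2 of these the median as reported exceeded the spread within classes: granule genes became 0.0151 in the upper 33.3% of probe sets, and seminal vesicle genes ranged from -0.0566 to 0.0871 when each array was left out, with 0.0871 without DMSO 2 and 0.00110 without Dactolisib 2. With 32 added before log2, which shrinks low signals, 195 genes were higher on the intermediate and 39 on the low arrays by log2 1 or more, and the medians were 1.35 for simple epithelium, 0.93 for squamous, -0.81 for type I interferon and 0.43 for ribosomal protein genes. A threshold of log2 2 left 124 and 0. Leaving out each array gave 337 to 372 and 52 to 80 genes, and medians of 1.75 to 1.85, 1.33 to 1.57, -0.89 to -0.81 and 0.43 to 0.46 in the same order. In the upper 33.3% of probe sets the simple epithelium median was 1.88 and the squamous 2.13. Averaging all probe sets per gene gave 1.54 for simple epithelium and 0.43 for ribosomal genes, and the mean of the matched differences 1.63 for squamous genes. For Dactolisib, limma passed 659 probe sets higher and 1260 lower within the classes, 0 and 0 without the class block, 1436 and 2483 with 32 added, 423 and 810 with no filter, 1283 and 2255 in the upper 33.3%, 1449 and 2465 with a prior both trended and robust, then 371 and 716 with all 8 arrays. The methods' t-test passed 0 and 0, with 1279 and 1909 at unadjusted p < 0.05. Leaving out DMSO 2 gave 1008 higher and 1846 lower, and leaving out DMSO 4 gave 508 and 1039. Calls were lost without Dactolisib 1, Dactolisib 2 or DMSO 3. The fits without Dactolisib 2 and without DMSO 3 are the same comparison, of Dactolisib 1 with DMSO 2 and DMSO 4. The cause of these shifts was not tested. No paired analysis was possible because Dactolisib and DMSO share only replicate number 2 among these arrays. With 3 arrays a class and treatments mixed unequally, array signals near the lower end of the scale bound how far low values can be read.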
